A study of Danio rerio with 6 samples.

Results

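UDP glucuronosyltransferases of families 2 and 5 were examined in zebrafish larvae that lack functional ferredoxin Fdx1b. The 7 loci were taken by their Ensembl identifiers from a table of exonic read counts with 31388 gene loci. They were *ugt2a1* (ENSDARG00000051940), *ugt2a5* (ENSDARG00000011537), *ugt2a6* (ENSDARG00000039501), *ugt5b2* (ENSDARG00000091916), *ugt5b3* (ENSDARG00000099276), *ugt5c2* (ENSDARG00000006372) and *ugt5d1* (ENSDARG00000002394). The rule names identifiers and holds no expression value. However, the loci were proposed with earlier results of these libraries known, and 5 of the 7 stood in a study table ordered by p-value. The number that moved in 1 direction is therefore a description. A current gene name table called ENSDARG00000051940 *ugt2a4* and ENSDARG00000091916 *ugt5b4*, and it gave the symbol *ugt5b2* to a further locus, ENSDARG00000101495. The identifiers therefore stand beside the symbols wherever these loci could be confused.

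RNA came from whole larvae at 5 days post fertilisation, collected 3 h after lights on (ZT 3). All libraries were controls without drug treatment, labelled CTR. The paper uses that label for vehicle in its dexamethasone experiments, and whether these larvae received vehicle is not stated. The groups were *fdx1b*-/- mutants and larvae labelled only as siblings, with 3 pools of 20 larvae in each. Fdx1b is the mitochondrial electron donor for steroid-making cytochrome P450 enzymes of the interrenal gland, the fish counterpart of the adrenal cortex, and the mutants are a model of glucocorticoid deficiency. Mutants were recognised by their failure to adapt their pigmentation to the background, so they were sorted by a phenotype that the siblings did not show. The labels do not say whether the pools came from separate clutches, and the p-values measure the spread between these pools.

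UDP glucuronosyltransferases sit in the membrane of the endoplasmic reticulum and transfer glucuronic acid from UDP-glucuronate to steroids, bilirubin, bile acids, thyroid hormone and foreign compounds. The water-soluble glucuronides then leave the cell through transporters and are lost in bile or urine. In vertebrates the liver, intestine and kidney are the main sites of this reaction. Family 2 is shared with mammals, whose enzymes conjugate steroids and other lipophilic compounds, whereas family 5 is known from fish and amphibians. The substrates of the individual zebrafish enzymes described here are not given.

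Between 18247332 and 49908095 exonic reads were counted per library, with sibling pool 2 the smallest. Sibling pool 2 also stood apart from the rest, with Pearson correlations of log2 CPM (counts per 1e+06 reads) of 0.9868 and 0.9845 with the other sibling pools, against 0.9937 between those 2. Levels are CPM on library sizes scaled by TMM, and a count of 3 reads, taken as the floor, corresponded to 0.0598 to 0.165 CPM. Genes were called higher or lower in mutants when the quasi-likelihood test of edgeR gave an adjusted p-value no greater than 0.01 and the log2 fold change was 0.25 or more in either direction. Of 26544 genes tested, 164 were higher in mutants (0.618%) and 132 lower (0.497%). All 3 mutant pools lay above all 3 sibling pools in 12.9% of genes and below them in 13.0%. At an unadjusted p under 0.05, 9.21% of genes were higher in mutants and 10.4% lower. For lists of genes, the counts below of calls, of groups without overlap and of loci at that limit stand against these shares. Over all tested genes, the median log2 fold change stood at -0.00285.

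All 7 loci passed the filter on low counts and all had fold changes above 0. Every mutant pool was above every sibling pool in 6 of the 7. With *ugt5b2* and *ugt5b3* counted once this was 5 of 6, against 12.9% of all genes. *ugt5b2* and *ugt5b3* rose past the threshold, both by 0.33 on the log2 scale. Those 2 of 7 compare with 0.618% of all genes, but both loci held nearly the same reads, so they were 1 measurement and not 2. The median log2 fold change with this pair counted once was 0.31, and the values ran from 0.20 for *ugt2a1* to 0.51 for *ugt2a6*. In bulk larvae, more RNA per cell and more cells of the expressing type cannot be told apart.

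**Figure D1:**
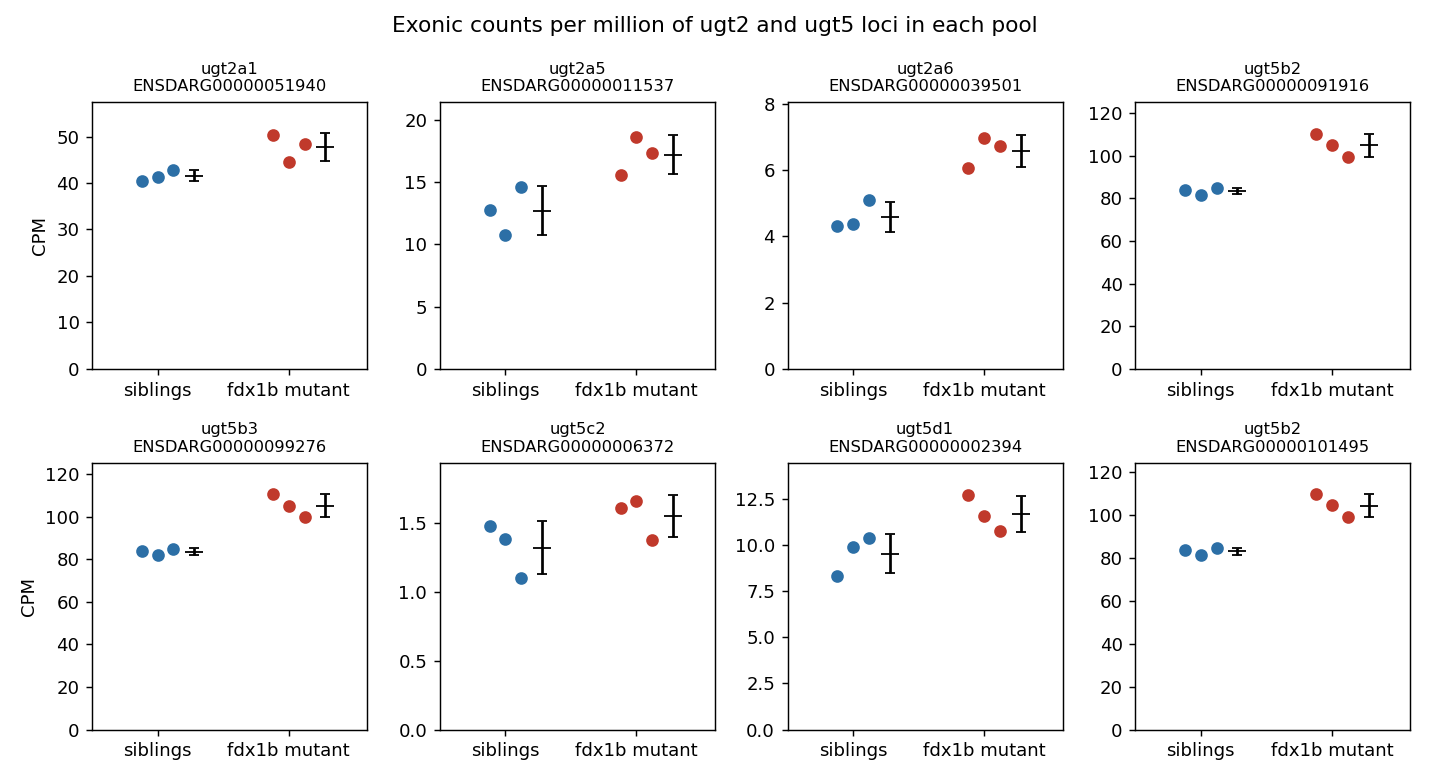
Each panel plots 1 locus, with CPM from 0 on the vertical axis, a point for each of the 3 sibling pools (blue) and 3 *fdx1b*-/- pools (red), and a bar for the mean ± SD. The groups overlap only for *ugt5c2*, and the panels of *ugt5b2* (ENSDARG00000091916), *ugt5b3* and ENSDARG00000101495 hold nearly the same points.

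*ugt2a1* was the most abundant family 2 locus. Its level was 40.5, 41.3 and 42.8 CPM in sibling pools 1, 2 and 3, and 50.4, 44.5 and 48.4 CPM in mutant pools 1, 2 and 3. The lowest mutant pool was thus just above the highest sibling pool. The group means were 47.8 ± 3.02 CPM in mutants and 41.5 ± 1.17 CPM in siblings (SD, n = 3). The log2 fold change of 0.20 (SE 0.06, 95% interval 0.07 to 0.33) did not pass (edgeR adjusted p = 0.0871).

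*ugt2a5* was measured at 12.8, 10.7 and 14.6 CPM in the sibling pools and at 15.5, 18.7 and 17.4 CPM in the mutant pools. Sibling pool 3 and mutant pool 1 were separated by less than 1 CPM. Its log2 fold change of 0.42 (SE 0.11, 95% interval 0.18 to 0.65) did not pass with edgeR (adjusted p = 0.0554), although DESeq2 placed it past the same threshold with an adjusted p of 0.00736. Without sibling pool 2, which had the lowest value, the log2 fold change was 0.33 (edgeR adjusted p = 0.0461).

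*ugt2a6* had the highest fold change of the 7 loci. It reached 4.31, 4.35 and 5.11 CPM in the sibling pools, against 6.04, 6.95 and 6.72 CPM in the mutant pools. The groups were separated by nearly 1 CPM, which is more than the SD of either group (0.472 in mutants and 0.449 in siblings). The means differed by a factor of 1.43, and the log2 fold change was 0.51 (SE 0.11, 95% interval 0.27 to 0.75). With an edgeR adjusted p of 0.0278 it missed the limit of 0.01, and DESeq2 gave an adjusted p of 0.0102. The log2 fold change of *ugt2a6* ran from 0.46 to 0.61, never called, when 1 library was left out. In counts thinned to the smallest library it was 0.361 (edgeR adjusted p = 0.14), beside 0.357 for *ugt2a5* and 0.350 for *ugt5d1*.

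In family 5, *ugt5b2* (ENSDARG00000091916) held 4207, 1483 and 3381 reads in the sibling pools and 4056, 4308 and 4355 reads in the mutant pools. Scaled to library size these were 83.9, 81.7 and 84.6 CPM in siblings and 110.4, 105 and 99.6 CPM in mutants. The sibling pools lay close together, and the lowest mutant pool was far above all of them. The means were 83.4 CPM in siblings and 105 ± 5.41 in mutants (SD, n = 3). The log2 fold change was 0.33 (SE 0.05, 95% interval 0.21 to 0.45), and it ranked 257th of all genes by p-value (edgeR adjusted p = 0.00737). This call was lost when mutant pool 1, 2 or 3 or sibling pool 1 was left out, with adjusted p-values of 0.0635, 0.0505, 0.0202 and 0.0496, while the fold change stayed between 0.30 and 0.37.

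*ugt5b3* (ENSDARG00000099276) gave 84.1, 81.9 and 85.0 CPM in siblings and 110.5, 105.2 and 99.7 CPM in mutants. Its log2 fold change was 0.33 (SE 0.05, edgeR adjusted p = 0.00775). The call was lost in the same 4 cases as that of *ugt5b2*, with adjusted p-values of 0.065, 0.0528, 0.0204 and 0.0512. In no library did its count differ from that of *ugt5b2* by more than 0.383%, or by more than 13 reads. ENSDARG00000101495, the further locus named *ugt5b2*, differed from ENSDARG00000091916 by at most 0.616% and from *ugt5b3* by at most 0.714%. It also passed, with a log2 fold change of 0.33 (SE 0.05, edgeR adjusted p = 0.00769).

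The exons of these 3 loci added up to 8153, 8672 and 8794 bases. In the RefSeq annotation of a newer assembly, GRCz12tu, *ugt5b1*, *ugt5b2*, *ugt5b3* and *ugt5b4* overlap and end within 100 bases of each other. The same holds there for *ugt2a1*, *ugt2a2*, *ugt2a3* and *ugt2a4*. Reads in shared exons do not tell such genes apart, so the counts of the 3 *ugt5b* loci are described below as 1 measurement, the *ugt5b* trio. For each of the other 5 loci, the locus nearest in counts was no UGT gene and differed by between 4.01% and 10% in at least 1 library. Such a search finds only loci with nearly equal counts. It cannot show whether a locus shares part of its reads with overlapping genes. In the same annotation *ugt5c2* overlaps *ugt5c3*.

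*ugt5d1* was present at 8.33, 9.87 and 10.4 CPM in the sibling pools and at 12.7, 11.6 and 10.7 CPM in the mutant pools. The highest sibling pool and the lowest mutant pool were close to each other. The log2 fold change of 0.30 (SE 0.10, 95% interval 0.07 to 0.53) did not pass (edgeR adjusted p = 0.142).

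*ugt5c2* was the scarcest of the 7 loci, with 25 to 74 reads per library. Sibling pools had 1.48, 1.38 and 1.10 CPM and mutant pools 1.61, 1.66 and 1.37 CPM, so that mutant pool 3 lay below sibling pools 1 and 2. A difference was not detectable at this depth (log2 fold change 0.23, SE 0.19, 95% interval -0.18 to 0.64, edgeR adjusted p = 0.536). The intervals of all 7 loci had the range from 0.27 to 0.33 in common. Differences in fold change between the loci were not tested.

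Since loci differ in length, their levels were compared as CPM per kb of exon among the 18 *ugt2* and *ugt5* loci that remain when the trio counts once. The trio was the most abundant, at 9.78 ± 0.186 CPM per kb in siblings and 12.3 ± 0.631 in mutants (SD, n = 3). *ugt2a1* came second, at 9.55 ± 0.269 in siblings and 10.98 ± 0.694 in mutants, and did not differ from the trio beyond the spread in siblings. Before division by length, *ugt5b2* (ENSDARG00000091916) had 83.4 CPM and *ugt2a1* 41.5 CPM in siblings, with exon lengths of 8153 and 4350 bases. The ranks therefore depend on the exon length given for each locus. Whether the transcripts present have that length was not tested. *ugt5d1* ranked 6th, at 6.24 ± 0.699 in siblings and 7.63 ± 0.644 in mutants. *ugt2a6* and *ugt2a5* ranked 9th and 10th, at 2.72 ± 0.266 and 2.70 ± 0.413 CPM per kb in siblings, and were not separated by their spread in either group. *ugt5c2* ranked 15th with 0.704 ± 0.104 in siblings and 0.825 ± 0.0815 in mutants. The sum over all 18 loci was 66.9 to 73.4 CPM per kb in sibling pools and 79.2 to 82.5 in mutant pools, and the share of the trio in that sum was 13.9% ± 0.393 in siblings and 15.3% ± 0.542 in mutants.

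**Figure D2:**
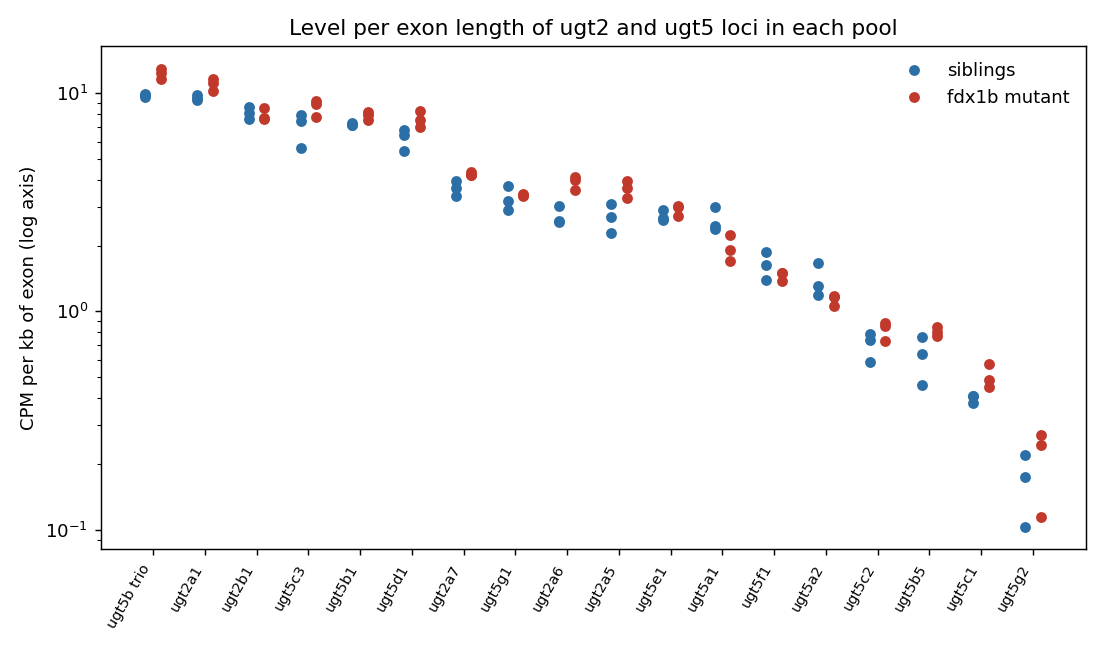
The level of 18 *ugt2* and *ugt5* loci is plotted as CPM per kb of exon on a log axis, with 1 point for each sibling pool (blue) and each *fdx1b*-/- pool (red), ordered by mean level. The *ugt5b* trio and *ugt2a1* lead, at about the same level in siblings, and the mutant points of *ugt5a1* and *ugt5a2* lie below those of the siblings.

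The other 13 loci with a *ugt2* or *ugt5* symbol included ENSDARG00000101495 of the trio, and none of the 12 that remain without it passed the test with edgeR or with DESeq2 (unadjusted p-values were under 0.05 for 2 loci with higher and 2 with lower means in mutants). Their log2 fold changes were above 0 for 8 and below 0 for 4. Every mutant pool was above every sibling pool in 4 of the 12, against 12.9% of all genes, namely *ugt2a7*, *ugt5b1*, *ugt5b5* and *ugt5c1*. All mutant pools were below in 2, against 13.0% of all genes, namely *ugt5a1* and *ugt5a2*. The median log2 fold change was 0.12, against 0.31 for the 7 loci with the trio counted once. Those 7 were proposed with earlier results of these libraries known, so the gap between the medians is no result about them. *UGT8*, the remaining UGT locus, encodes the enzyme that makes galactosylceramide of myelin from UDP-galactose, and was at 57.7 ± 2.24 CPM in mutants and 53.3 ± 2.17 in siblings (edgeR adjusted p = 0.292).

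The fitted sign was not the same in all subfamilies. Differences between subfamilies were not tested, and no locus with a negative fold change passed. All 4 *ugt2a* loci had positive log2 fold changes, *ugt2a7* with 0.20 (SE 0.07, edgeR adjusted p = 0.116). In all 4 every mutant pool was above every sibling pool, against 12.9% of all genes. All but *ugt2a7* were among the loci proposed with earlier results of these libraries known, so this count is no result about the subfamily. *ugt2b1* had -0.04 (SE 0.08, 95% interval -0.23 to 0.14) and overlapping groups, and its sign turned without sibling pool 3. In the *ugt5c* subfamily *ugt5c1* and *ugt5c3* had 0.32 and 0.28, neither past the test. Both *ugt5a* loci were negative. *ugt5a1* was at 5.88, 4.69 and 4.81 CPM in the sibling pools and 3.32, 4.36 and 3.75 CPM in the mutant pools (log2 fold change -0.44, SE 0.14, edgeR adjusted p = 0.0977). *ugt5a2* was at 9.33, 6.67 and 7.33 CPM in the sibling pools and 5.93, 6.63 and 6.52 CPM in the mutant pools (log2 fold change -0.31, SE 0.12, edgeR adjusted p = 0.191). The gap between the groups of *ugt5a2* was small, as sibling pool 2 and mutant pool 2 nearly coincided. When 1 library was left out, the log2 fold change of *ugt5a2* ran from -0.39 to -0.15, the latter without sibling pool 1. *ugt5a1* and *ugt5a2* overlap and share an end in the RefSeq annotation, as the *ugt5b* genes do.

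**Figure D3:**
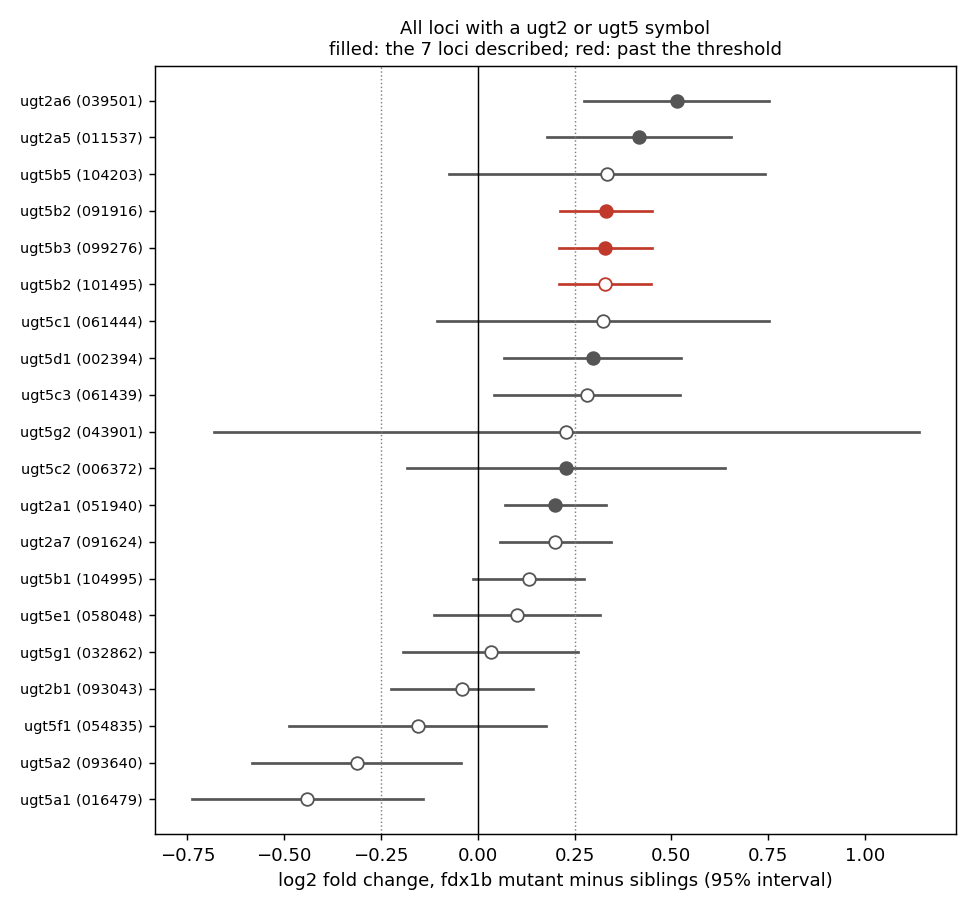
The horizontal axis gives the log2 fold change of *fdx1b*-/- mutants against siblings with its 95% interval for all 20 loci with a *ugt2* or *ugt5* symbol, labelled by the last 6 digits of the identifier. Filled points mark the 7 loci described, red marks loci past the threshold, and the dotted lines at -0.25 and 0.25 are the fold limits; the 3 red loci share their reads.

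Within a library the ratio of 2 loci does not depend on scaling. These pairs were chosen after the values had been seen and were not tested. Reads of *ugt5b2* (ENSDARG00000091916) per read of *ugt5a1* were 14.3, 17.4 and 17.6 in the sibling pools and 33.2, 24.1 and 26.6 in the mutant pools. Against *ugt5a2* the ratio was 8.99, 12.3 and 11.5 in siblings and 18.6, 15.8 and 15.3 in mutants. Against *ugt2b1* it was 6.88, 7.13 and 6.49 in siblings and 8.63, 9.17 and 8.57 in mutants. Against *ugt5b1*, which shares an end with the trio in the RefSeq annotation, it was 4.89, 4.77 and 4.86 in siblings and 5.79, 5.81 and 5.09 in mutants. Mutant and sibling pools did not overlap in any of the 4 ratios. For *ugt5a1* and *ugt5a2* this was fixed beforehand, as all mutant pools were below all sibling pools for them and above for *ugt5b2*.

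**Figure D4:**
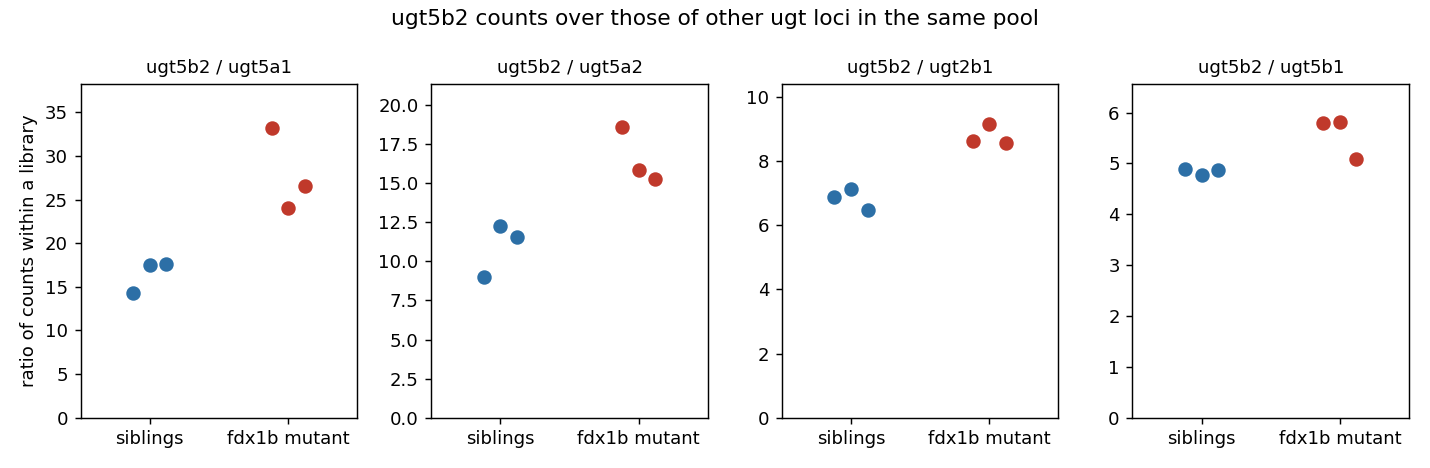
Each panel gives, from 0 on the vertical axis, the count of *ugt5b2* (ENSDARG00000091916) divided by that of 1 other locus in the same pool, for 3 sibling pools (blue) and 3 *fdx1b*-/- pools (red). The mutant ratios lie above the sibling ratios in all 4 panels, with the widest gap against *ugt5a1*, where siblings reach 17.6 and mutants start at 24.1.

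The 7 loci of family 1, which in mammals conjugates bilirubin and phenols, had log2 fold changes of 0.29 to 0.31, close to that of the *ugt5b* trio. They were not 7 separate measurements, as the counts of *ugt1b2*, *ugt1b3* and *ugt1b4* differed by at most 4.54% between any of these loci in every library. None of them passed with edgeR at the limit of 0.01, although all 7 had an unadjusted p under 0.05 and 6 passed with DESeq2. In all 7 every mutant pool was above every sibling pool, against 12.9% of all genes. Without sibling pool 3, 5 of them passed with edgeR.

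Genes that make the sugar donor were examined next. UDP-glucuronate is formed from glucose phosphates by phosphoglucomutase (*pgm1*, *PGM2*), UDP-glucose pyrophosphorylase (*ugp2a*, *ugp2b*) and UDP-glucose dehydrogenase (*ugdh*), and SLC35D1 transporters carry it into the endoplasmic reticulum. *ugdh*, which encodes the enzyme of the last step of synthesis, rose past the threshold. It was at 51.7, 55.2 and 53.7 CPM in the sibling pools and 85.7, 72.7 and 73.2 CPM in the mutant pools, with a log2 fold change of 0.53 (SE 0.07, 95% interval 0.38 to 0.68, edgeR adjusted p = 0.00163). The transporter gene *slc35d1b* had 27.9, 24.3 and 26.6 CPM in siblings and 33.7, 31.4 and 34.5 CPM in mutants (log2 fold change 0.33, SE 0.07, edgeR adjusted p = 0.0209). Among all alternatives run, the call of *ugdh* was lost only without sibling pool 1, where the log2 fold change was 0.50 (edgeR adjusted p = 0.018). Of the 7 genes in this list, 1 was called higher and none lower, against 0.618% and 0.497% of all genes. No gene of the list had a lower fitted level in mutants. At an unadjusted p under 0.05, 5 were higher and 0 lower, and DESeq2 called 2 higher and 0 lower. In 6 all mutant pools were above all sibling pools, against 12.9% of all genes, the exception being *ugp2a* (0.01, SE 0.16). *pgm1* and *ugp2b* had log2 fold changes of 0.22 and 0.18 (edgeR adjusted p = 0.0762 and 0.0902). The median over the list was 0.18.

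**Figure D5:**
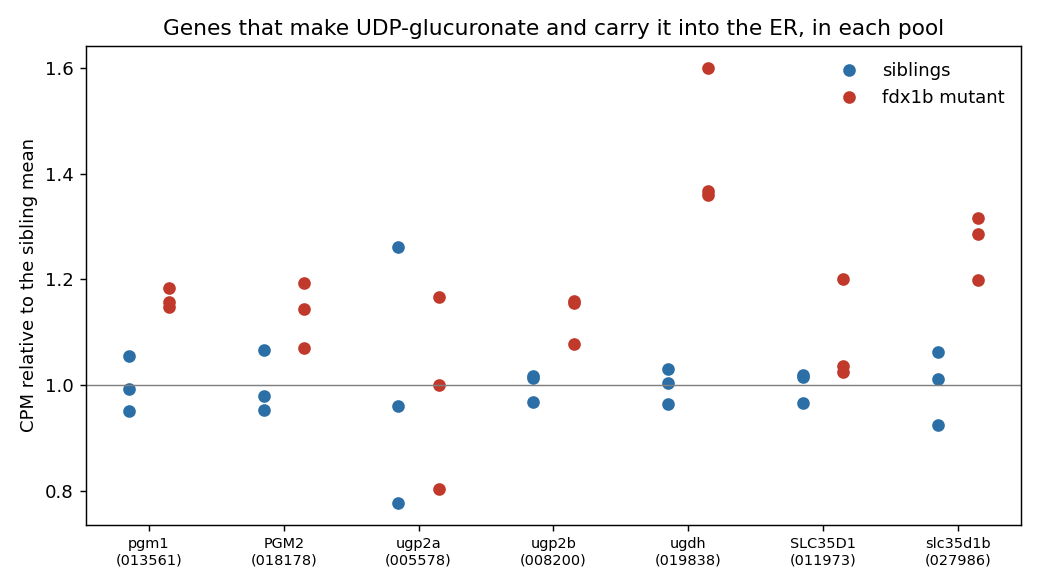
CPM relative to the sibling mean is plotted for 7 genes in the order of the pathway, with 1 point for each sibling pool (blue) and each *fdx1b*-/- pool (red). All mutant points of *ugdh* lie above its sibling points by the widest margin, and only *ugp2a* has overlapping groups.

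A list of 14 loci covered other enzymes that use UDP-glucuronate, such as the hyaluronan and heparan sulfate synthases. It also held *xylt1* and *XYLT2*, whose enzymes use UDP-xylose instead. None of the 14 was called by edgeR or DESeq2 (2 higher and 3 lower, *xylt1* among the lower, at an unadjusted p under 0.05). The median log2 fold change over the list was -0.07. Sulfotransferases conjugate many of the same substrates with sulfate. At an unadjusted p under 0.05, 6 of 19 loci were higher and 2 lower, and DESeq2 called 2 higher and 0 lower. With edgeR none was called lower and 1 was called higher, against 0.618% of all genes. This was *sult3st4*, at 2.07 ± 0.830 CPM in siblings and 5.52 ± 0.852 in mutants (SD, n = 3; log2 fold change 1.39, SE 0.23, edgeR adjusted p = 0.00697), and its call was lost without any of the mutant pools or sibling pool 1 (edgeR adjusted p between 0.0223 and 0.0445) and in the robust fit (0.0139). Of 11 genes for export or hydrolysis of glucuronides none was called by edgeR, 3 had lower and 0 higher levels in mutants at an unadjusted p under 0.05, and DESeq2 called 1 lower. The value nearest to the limit was that of the transporter gene *abcc5* (-0.29, SE 0.07, edgeR adjusted p = 0.032). Whether its product carries glucuronides in these larvae was not tested. Of the 11 genes 7 had fold changes below 0 and 4 above, among the latter *abcc2* (0.15, SE 0.07) and *abcc3* (0.02, SE 0.07).

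Cytochrome P450 enzymes of families 1 to 3 often introduce the hydroxyl group to which glucuronate is then attached. At an unadjusted p under 0.05, 19 of 47 such loci tested were higher and 2 lower, and DESeq2 called 7 higher and 1 lower. The median log2 fold change over the list was 0.04. With edgeR none was called lower and 5 were called higher, against 0.618% of all genes. They were *cyp2aa8* (2.10, SE 0.23), *cyp2aa4* (1.84, SE 0.21), *cyp2aa9* (1.70, SE 0.14), *cyp2aa3* (1.09, SE 0.14) and *cyp2x9* (0.75, SE 0.09), with edgeR adjusted p-values between 8.73e-05 and 0.0018. *cyp2aa8*, which had the highest log2 fold change of the 5, went from 11.9 ± 6.17 CPM in siblings to 52.8 ± 0.291 in mutants (SD, n = 3). Leaving out mutant pool 1 or 3 or sibling pool 1 ended the call of *cyp2x9* (edgeR adjusted p up to 0.0163), and leaving out any mutant pool or sibling pool 1 that of *cyp2aa3* (up to 0.0157). In the robust fit *cyp2aa8*, *cyp2aa9* and *cyp2aa4* were not called (edgeR adjusted p = 0.061, 0.0232 and 0.0279). The 4 *cyp2aa* loci are paralogs, and how many reads they share was not tested.

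Markers of liver, intestine, exocrine pancreas, kidney tubule and olfactory organ were also examined. Which of these tissues express the 7 loci was not tested. Of 11 liver genes, *ambp* rose (0.56, SE 0.06, edgeR adjusted p = 0.000403) and *ahsg1* fell (-0.60, SE 0.10, edgeR adjusted p = 0.00889). All mutant pools were above all sibling pools in 7, against 12.9% of all genes, and below in 2, against 13.0%. The second of these was *ahsg2* (-0.46, SE 0.08, edgeR adjusted p = 0.011). At an unadjusted p under 0.05, 7 were higher and 2 lower, and DESeq2 called 5 higher and 2 lower. The summed level of the 11 genes was 2954 to 3699 CPM in siblings and 4215 to 4279 in mutants, most of it from *apoa2* and *tfa*, while *fabp10a* was at 315 ± 27.5 CPM in siblings and 290.1 ± 3.83 in mutants. *apoa2* and *tfa* themselves had log2 fold changes of 0.44 (SE 0.09) and 0.39 (SE 0.08), neither called (edgeR adjusted p = 0.0217 and 0.0204). The 7 UGT loci with the trio counted once had 44.4, 50.6 and 42.9 reads per 1000 reads of the liver genes in the sibling pools and 46.1, 44.0 and 43.7 in the mutant pools. On that scale the groups overlapped. They also overlapped for *ugt5b2* (ENSDARG00000091916) alone, with 24.6, 27.7 and 22.9 reads per 1000 reads of the liver genes in siblings and 25.9, 24.5 and 23.6 in mutants, and with 79.3, 92.9 and 77.4 per 1000 reads of *tfa* in siblings and 82.2, 78.7 and 76.7 in mutants. Per 1000 reads of *fabp10a* the same locus had 267, 285 and 247 reads in siblings and 375, 366 and 345 in mutants, without overlap. The part of liver RNA in the UGT values was not tested.

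Of 8 intestinal genes, *fabp1b.1* rose (0.44, SE 0.07, edgeR adjusted p = 0.00546) and *apoa4b.3* fell (-0.94, SE 0.11, edgeR adjusted p = 0.000803), and the summed level of 1470 to 1676 CPM in siblings overlapped that of 1583 to 1707 CPM in mutants. Exocrine pancreas markers summed to 3234 to 3740 CPM in siblings and 2877 to 3307 in mutants. None of those 5 loci was called by edgeR, 4 were lower and 0 higher in mutants at an unadjusted p under 0.05, and DESeq2 called 3 lower. The 4 kidney tubule loci summed to 132.9 to 140.5 CPM in siblings and 133.4 to 140.6 in mutants. Most of this was *slc20a1b*, at 88.9 ± 2.15 CPM in siblings and 89.0 ± 4.21 in mutants (SD, n = 3). None of the 4 was called by edgeR or DESeq2. At an unadjusted p under 0.05, 1 was higher (*miox*) and 1 lower (*slc5a12*). The 3 olfactory markers were scarce, between 0.661 and 1.30 CPM in sum over all libraries. Of these, *or103-4* and *or102-2* had the same counts in every library, at most 12 reads and none in sibling pool 2, so they were 1 measurement. *trpc2b* had 12 to 43 reads per library and was not called.

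Finally, the genes whose log2 CPM ran most like that of a locus over the 6 libraries were listed, as a description without a test. For *ugt2a1* these were *Metazoa_SRP* (ENSDARG00000105284) and *fmnl3*, and for *ugt2a5* *arhgap27l* and *JAM3*. For *ugt5b2* (ENSDARG00000091916) they were *EIF4E2* and *FAM117A*, for *ugt5c2* *si:ch211-51h4.2* and *si:dkey-53f14.5*, and for *ugt5d1* *PCSK5* and *RXYLT1*. Pearson's r was between 0.990 and 0.999 (n = 6 libraries). At a looser limit, an r of 0.95, between 30 genes (*ugt5c2*, 0.126%) and 399 genes (*ugt2a5*, 1.68%) of about 23760 were reached. How many reached 0.990 was not counted. All of these values rest on the same 6 libraries and 2 groups.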

How the data were processed

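Total RNA from pools of 20 larvae was depleted of ribosomal RNA and sequenced with a stranded kit. Alignment by the authors used STAR and the GRCz10 genome. A script of theirs assigned reads with a unique position to exons of Ensembl loci, and the deposited values are the resulting raw read counts, beside each locus's exon length. Whether strand was used in counting is not given in the sources used here. No column of per-sample values was left unmapped.

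Counts of all 31388 loci were filtered with filterByExpr, scaled by TMM and compared between 3 mutant and 3 sibling libraries in edgeR 4.0.16 by its quasi-likelihood F test (R 4.3.3), with Benjamini-Hochberg adjustment over all 26544 tested genes. SE was the fold change divided by the square root of F. Log2 CPM used a prior count of 2. Loci were taken as near-identical when their counts differed by at most 1% in every library. The rule named the 7 loci, near-identical loci, genes of the listed pathways and markers past the threshold, and the 2 genes most correlated with each locus. The most correlated genes of *ugt2a6* are not reported here. Further genes of the lists were named after their values were seen. Members and lists were chosen with earlier results of these data known. Symbols came from a gene name table or the study's tables, and 5 of the 7 loci stood in a study table ordered by p-value. Alternatives were other scalings and filters, DESeq2 1.42.0, a robust fit, a replicate block, leaving out each library, thinned counts, near-identical loci as 1 row, and an adjusted p of at most 0.05 with no fold limit. The script was tested on simulated data. The *fdx1b* gene itself is not analysed here.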

Additional observations from a re-analysis of the deposited data

How the results depend on the processing

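The fold changes of the 7 loci kept their sign in all alternatives run. Of the 2 of 7 loci called, 3 were called with DESeq2 (with *ugt2a5*) and 3 at an adjusted p of at most 0.05 with no fold limit (with *ugt2a6*), 1 with near-identical loci as 1 row, by construction, and 0 to 2 when 1 library was left out, 0 without any mutant pool or sibling pool 1. Calls over all genes ranged from 109 to 622 when 1 library was left out, against 296 with all 6; DESeq2 called 885, and 1032 passed at an adjusted p of at most 0.05 with no fold limit. Mutant and sibling libraries of the same replicate number had correlations of their deviations of -0.141, -0.140 and 0.0907. Those of different number ran from -0.159 to 0.219. With 3 pools per group these values cannot show whether the samples were paired. With a replicate block 0 of the 7 loci, 0 further UGT loci and 202 genes in all were called, and *ugt5b2* (ENSDARG00000091916) had an adjusted p of 0.0233. Of the 7 linked genes called, 6 were called with the replicate block, without *sult3st4* (adjusted p = 0.0175).

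The 1 further UGT locus called, ENSDARG00000101495, was not called in thinned counts (0) or with near-identical loci as 1 row (0), and 0 to 1 were called when 1 library was left out. In the linked pathways, 7 genes called became 19 with DESeq2 (17 higher, 2 lower), 4 in the robust fit, 18 at an adjusted p of at most 0.05 with no fold limit (16 higher, 2 lower), and 3 to 12 when 1 library was left out. These counts include the loci of UGT family 1, which are not separate measurements. Family 1 made up 6 of the calls with DESeq2, 6 of those with no fold limit, and 5 of the 12 without sibling pool 3. The cause of these changes was not tested. Among all *ugt2* and *ugt5* loci the sign turned only for *ugt5g1* (-0.034 without sibling pool 2, to 0.152 without sibling pool 1) and *ugt2b1* (-0.087 without mutant pool 1, to 0.012 without sibling pool 3), neither called in any alternative. At the depth of these libraries the intervals of scarce loci such as *ugt5c2* and *ugt5g2* were wide.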
